A study of Mus musculus with 23 samples.

Results

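The genes described here are 7 transcription factors that specify or maintain trophoblast in the mouse (Cdx2, Gata2, Gata3, Elf5, Tfap2a, Tfap2c and Hand1) and 3 of the keratins of simple epithelium (Krt8, Krt18 and Krt19). They were taken by symbol from the deposited tables, as 10 of 53607 gene rows, and all 10 passed the filter on low counts together with 20372 genes in all. They were chosen because the repressor ERF is known to act in trophoblast and were selected on a measured value, the level of Gata3, already known to be low in 2iL in the libraries labelled ERF knockout. Levels in 2iL with and without the ERF knockout label are therefore given as a description, with no test, as is every comparison of Gata3 that includes 2iL libraries. The other comparisons were tested.

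Trophoblast is the first lineage to separate from the cells that form the embryo, and it later builds the placenta. Cdx2, Gata3 and Tfap2c act early in its specification, Elf5 holds the trophoblast stem cell state, and Hand1 drives giant cell formation. Krt8 and Krt18 pair into the intermediate filaments of the first epithelia of the embryo, and Krt19 is a further simple epithelial keratin. ERF is a repressor of the ETS family that the kinase ERK inactivates by sending it out of the nucleus, and RAS proteins act upstream of ERK. In the mouse, ERF is needed for the chorion to mature.

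The study sequenced RNA of mouse embryonic stem cells in 23 libraries of 8 groups. The groups combine 2 media (2iL or FA) with 4 genotypes, in which ERF is wild type or labelled knockout and RAS is present or has been deleted. Every group, controls included, carries H-Ras-/-, N-Ras-/-, a floxed RAS allele (the Raslox/lox background) and the ubiquitously expressed tamoxifen-inducible recombinase Ubiq-CreERT2. RAS was deleted with 4-hydroxytamoxifen (OHT) given for 6 days, so effects of the drug and of losing RAS cannot be told apart. Medium 2iL keeps cells naive with LIF and inhibitors of MEK and of GSK3, while FA holds FGF2 at 12 ng/ml and Activin A at 20 ng/ml and was used for 48 hours. Groups have n = 3, apart from n = 2 for the reference in FA. Here "reference" means ERF wild type with RAS present, and "RAS-deleted" without further words means ERF wild type with RAS deleted. The labels do not say whether the libraries of a group are separate cultures or whether a genotype is 1 clone, so p-values measure the spread between these samples, which may be technical.

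Total counts ran from 16.2 to 29.9 M per library. Erf itself had 116 ± 17.5 CPM (library-scaled counts, SD, n = 3) under the ERF knockout label with RAS present in 2iL, where the reference had 77.6 ± 7.66 CPM (SD, n = 3). In FA its mean was 57.5 CPM under the label and 63.1 CPM in the reference, and with RAS deleted 60.6 and 69.7 CPM, neither difference being called (log2 -0.14 and -0.20, edgeR adjusted p = 0.614 and 0.23). Hras gave 12.0 to 25.9 CPM per library. Nras was at 7.74 and 5.32 CPM in replicate 2 of both 2iL groups labelled ERF knockout, the first with RAS present, and at 30.7 to 52.3 CPM in their other replicates. Which part of Erf, Hras or Nras was deleted is not given in the labels, so these levels do not check them, and the genotypes are used as labelled. As a check of cell identity, 6 stem cell markers (Pou5f1, Sox2, Nanog, Zfp42, Esrrb and Tfcp2l1) summed to 964.1 to 1382 TPM (a level per transcript length) in 2iL, to 984 to 1181 TPM in the RAS-deleted libraries in FA and to 344.5 to 445 TPM in the other groups in FA. Of 6 markers of differentiated trophoblast, Prl3d1, Prl3b1 and Prl2c2 had 0 counts in all 23 libraries, and the 6 together reached at most 1.53 TPM. Of 5 trophoblast stem cell markers (Cdx2, Eomes, Elf5, Tfap2c and Gata3), none was at 0 in all libraries, and their sum ran from 5.87 to 51.03 TPM. It was 39.37 to 51.03 TPM in the reference in 2iL, where Tfap2c reached 45.8 TPM, while Cdx2 and Elf5 stayed at or under 0.844 and 0.482 TPM in every library. In bulk RNA, fewer cells expressing a gene and less RNA per cell cannot be told apart. Replicate 1 of the 4 ERF wild type groups had raised expression over chromosome 8 (median log2 shift 0.284 to 0.33 per library), which holds none of the 10 genes, and replicate 1 of the 4 groups labelled ERF knockout had raised expression over chromosome 11 (0.0594 to 0.164), which holds Hand1 and Krt19.

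The upstream sequences shown are those of Gata3, whose low level in 2iL under the ERF knockout label chose the genes, and of Krt8 and Krt18, which lie 23698 bases apart on chromosome 15 on opposite strands and whose levels correlated across the libraries. They come from RefSeq (GRCm38.p6, the mm10 build), for which 7 of the 10 genes had an entry. Each runs 5′ to 3′ on the strand of the gene. It starts 250 bases before the RefSeq start site. Those of Krt8 and Krt18 stop before the gene's own first annotated exon in GENCODE M21, and that of Gata3 is shown over the whole 250 bases. Capitals mark matches to CCGGAA, a narrow form of the ETS core, and to the AP-2 site GCCNNNGGC, searched on both strands. Other forms of the ETS core were not searched and are not marked.
Gata3, chr2:9878601-9878850, minus strand: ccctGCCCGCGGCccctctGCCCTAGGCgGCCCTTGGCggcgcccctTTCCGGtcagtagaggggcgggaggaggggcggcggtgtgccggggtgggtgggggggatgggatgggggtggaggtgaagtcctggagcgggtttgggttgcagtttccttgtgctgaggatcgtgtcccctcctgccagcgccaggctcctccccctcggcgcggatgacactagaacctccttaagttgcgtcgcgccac
Krt8, chr15:102004483-102004592, minus strand: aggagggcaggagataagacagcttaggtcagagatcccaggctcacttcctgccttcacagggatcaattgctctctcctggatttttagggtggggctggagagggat
Krt18, chr15:102027966-102028179, plus strand: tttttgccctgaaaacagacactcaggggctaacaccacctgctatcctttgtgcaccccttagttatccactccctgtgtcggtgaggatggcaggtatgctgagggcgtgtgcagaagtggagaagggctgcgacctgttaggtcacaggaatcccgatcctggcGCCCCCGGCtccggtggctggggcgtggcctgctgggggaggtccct
The Gata3 window held 1 CCGGAA match, 203 to 198 bases before the start, and 3 AP-2 matches. The 250-base window of Krt18 held 1 AP-2 match and that of Krt8 neither of the searched forms. Of 32851 RefSeq windows of 250 bases, 12.0% held CCGGAA and 13.7% the AP-2 site. A match is a description of the letters and no evidence of binding. The Gata3 window lies within the body of the annotated gene (chromosome 2, 9857078 to 9890034). The antisense gene Gm13256, which had 0 counts, overlaps that gene.

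On a scale per transcript length, Tfap2c was the most abundant of the factors, with a median of 16.1 TPM over the 23 libraries and a range of 2.67 to 45.8 TPM. Krt8 and Krt18 followed with medians of 5.09 and 5.00 TPM, and Krt19 had 1.05 TPM. Median levels of Gata2, Gata3 and Tfap2a were 1.01, 0.868 and 0.746 TPM. Hand1, Elf5 and Cdx2 were near the limit of detection, with medians of 0.271, 0.164 and 0.0703 TPM, and Cdx2 rested on 165 counts over all libraries together. The effective length assigned to Gata3 ran from 490 to 3038 bases and that of Hand1 from 358 to 1731 bases between libraries, so their TPM depend on which transcripts were assigned, and the comparisons below use counts. At such low levels small changes of Cdx2 and Elf5 may go undetected.

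A gene was called where its Benjamini-Hochberg adjusted p in edgeR's quasi-likelihood test, over all genes tested, was under 0.05 and its change at least 2-fold. For FA against 2iL, 6 of the 9 genes other than Gata3 were called in the reference, where 24% of all genes were called. Of those 9, 2 were called in the RAS-deleted libraries (16.5% of all genes), 3 under the ERF knockout label with RAS present (19.7%) and 3 with RAS deleted as well (24.9%). RAS deletion in 2iL called 1 of the 9 with ERF wild type (1.2% of all genes) and 0 of 9 under the ERF knockout label (0.211%). In that last comparison DESeq2 also called 0, and 1 gene had an unadjusted p under 0.05 in edgeR, Tfap2a (log2 0.52, adjusted p = 0.334). Deleting RAS in FA called 8 of 10 with ERF wild type (17.3%), or 5 to 7 when 1 library was left out, and 1 of 10 under the ERF knockout label (6.88%). The ERF knockout label in FA called 3 of 10 with RAS present (2.36%) and 7 of 10 with RAS deleted (16.6%). The label in 2iL is the contrast on which the genes were chosen, and no calls are given for it.

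Direction divided the genes in each comparison. The median log2 change of the 10 genes in the reference between FA and 2iL was 0.32, beside 0.03 over all genes, with 5 positive and 5 negative. For RAS deletion in FA with ERF wild type the median was -0.32, beside 0.00139 over all genes, again with 5 and 5. The 10 genes therefore did not move as 1 group, and they are taken below by role.

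**Figure D1:**
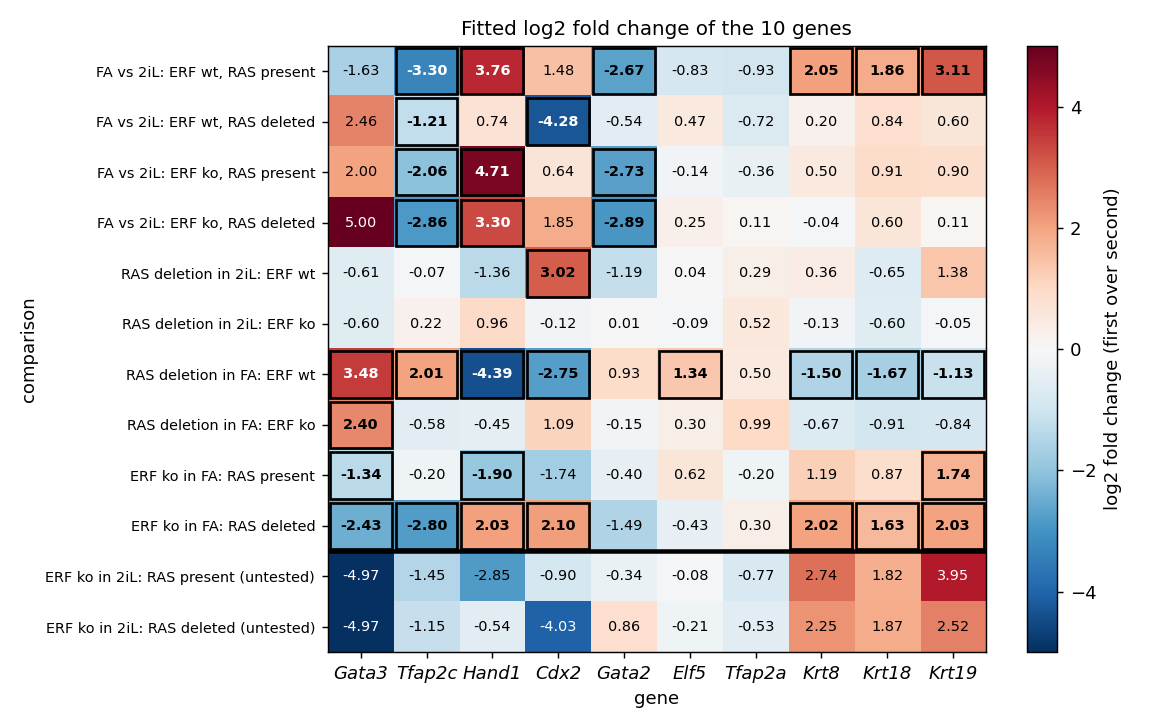
Fitted log2 fold change of each gene (columns) in each comparison between 2 groups (rows), first condition over second, in colour and digits. Framed bold values were called; the 2 rows under the thick line and Gata3 in every row that includes 2iL libraries are untested.

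Gata3, a zinc finger factor that can direct cells to trophoblast, had its highest levels in the RAS-deleted libraries in FA and its lowest in both groups labelled ERF knockout in 2iL. In 2iL the reference libraries had 4.69, 6.01 and 4.41 CPM and the RAS-deleted libraries 3.6, 3.50 and 2.76 CPM. Libraries labelled ERF knockout had 0.288, 0.0541 and 0.105 CPM with RAS present and 0.114, 0.0560 and 0.135 CPM with RAS deleted. All 6 ERF wild type libraries lay above all 6 libraries labelled ERF knockout. As a description of the contrast by which the genes were chosen, the fitted log2 difference was -4.97 where RAS was present and -4.97 where it was deleted. These rest on 330 counts against 9 and on 193 counts against 5. Over the alternatives run, the difference ran from -5.855 to -4.606 with RAS present and from -5.187 to -4.668 with RAS deleted. The ratios of the summed counts were 32.0 and 32.9, given without an interval since these values chose the genes.

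In FA the levels of Gata3 took another order. The 2 reference libraries had 1.37 and 1.89 CPM, and the RAS-deleted libraries had 18.3, 18.5 and 17.5 CPM. Libraries labelled ERF knockout had 0.448, 0.652 and 0.797 CPM with RAS present and 3.7, 2.82 and 3.52 CPM with RAS deleted. No 2 of these 4 groups overlapped. Over all 8 groups the order ran from RAS-deleted in FA through the reference in 2iL to a pair that overlapped, namely ERF knockout with RAS deleted in FA and RAS-deleted in 2iL. Below them came the reference in FA, ERF knockout in FA and then the 2 groups labelled ERF knockout in 2iL, which overlapped each other.

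Between 2iL and FA the fitted log2 difference of Gata3 was -1.63 in the reference and 2.46 in the RAS-deleted libraries. In libraries labelled ERF knockout it was 2.00 where RAS was present and 5.00 where it was deleted. All 4 are untested, since they include the 2iL libraries whose Gata3 levels chose the genes. The groups in 2iL and FA did not overlap in any of the 4 genotypes, which describes the levels and replaces no test. Groups this small can separate by chance, and the share of all genes that likewise did not overlap is not given. Changes between the media were also common, with 16.5 to 24.9% of all genes called. Other ranges compared without a test are likewise a description only.

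Deleting RAS in FA raised Gata3 with either ERF label. With ERF wild type the rise was 11.2-fold (log2 3.48 ± 0.25, edgeR adjusted p = 1.38e-10), and under the ERF knockout label it was 5.26-fold (log2 2.40 ± 0.24, edgeR adjusted p = 2.93e-07). The difference between these rises was -1.09 ± 0.35 (interaction in edgeR, adjusted p = 0.0226). That interaction lost its call without replicate 1 of the reference in FA (-0.88, adjusted p = 0.116), and under the ERF knockout label in FA without replicate 3 with RAS present (-0.88, adjusted p = 0.0965) or replicate 2 with RAS deleted (-0.99, adjusted p = 0.0502). It was also lost without replicate 1 of the 4 ERF wild type groups (-0.87, adjusted p = 0.128). In 2iL the fitted difference with ERF wild type, untested, was -0.61.

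Gata3 was also lower under the ERF knockout label in FA, a contrast that was not used to choose the genes. With RAS deleted it was 5.39-fold lower (log2 -2.43 ± 0.19, edgeR adjusted p = 6.81e-10). With RAS present it was 2.54-fold lower (log2 -1.34 ± 0.28, edgeR adjusted p = 0.00497), a call lost when only the compared groups entered the fit (-1.35, adjusted p = 0.064).

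Tfap2c, an AP-2 factor of trophoblast that is also expressed in naive stem cells and germ cells, was high in 2iL and low in FA. In 2iL it stood at 102, 119 and 111 CPM in the reference and at 97, 107 and 112 CPM in the RAS-deleted libraries. Libraries labelled ERF knockout had 46.1, 38.9 and 36.9 CPM with RAS present and 49.5, 44.8 and 48.0 CPM with RAS deleted. The ERF wild type libraries were all above those labelled ERF knockout, with fitted differences, untested, of -1.45 and -1.15 on the log2 scale.

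In FA, Tfap2c kept a high level in 1 group. The RAS-deleted libraries had 51.1, 48.3 and 36.9 CPM, against 8.74 and 14 CPM in the reference. Libraries labelled ERF knockout had 8.32, 11.4 and 9.56 CPM with RAS present and 6.15, 7.22 and 6.22 CPM with RAS deleted. The RAS-deleted libraries with ERF wild type lay above all others in FA, and the reference overlapped ERF knockout with RAS present. Stem cell markers were also high in that group (984 to 1181 TPM, against at most 445 TPM in the other libraries in FA). Of the 6, 5 were called higher on RAS deletion in FA with ERF wild type, where 8.93% of all genes were, and 5 lower by ERF label with RAS deleted, where 8.48% were. Surface ectoderm also expresses Gata3 and Tfap2c, and 5 of its markers (Trp63, Krt5, Krt14, Grhl3 and Dlx5) summed to 8.22 to 9.77 TPM in that group and to at most 1.07 TPM in the others in FA. Grhl3 made up most of this, with up to 9.42 TPM, and Trp63, Krt5, Krt14 and Dlx5 had at most 0.224, 0.134, 0.155 and 0.146 TPM. Of these 5 genes, 2 were tested, and both were called higher on RAS deletion and lower by ERF label in the same comparisons. The part of either set of markers in the Gata3 and Tfap2c results was not tested.

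Each genotype lost Tfap2c in FA. The fall was 9.86-fold in the reference (log2 -3.30 ± 0.18, edgeR adjusted p = 3.68e-12) and 2.32-fold in the RAS-deleted libraries (log2 -1.21 ± 0.14, edgeR adjusted p = 3.55e-07), and these responses differed by 2.09 ± 0.21 (interaction in edgeR, adjusted p = 3.22e-07). In libraries labelled ERF knockout the falls were 4.16-fold with RAS present and 7.27-fold with RAS deleted (edgeR adjusted p = 4.25e-10 and 3.5e-12). RAS deletion in FA raised Tfap2c 4.04-fold with ERF wild type (log2 2.01 ± 0.17, edgeR adjusted p = 7.15e-09). With the ERF knockout label the same deletion gave a log2 change of -0.58 ± 0.16, short of 2-fold (edgeR adjusted p = 0.0123). The difference between these was -2.59 ± 0.24 (interaction in edgeR, adjusted p = 6.73e-08).

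Within FA the ERF knockout label lowered Tfap2c where RAS was deleted, by 6.96-fold (log2 -2.80 ± 0.16, edgeR adjusted p = 1.1e-11). With RAS present the difference was -0.20 ± 0.18 (edgeR adjusted p = 0.507). The interaction above is also the test that these 2 differ. Gata3 and Tfap2c thus shared their rise on RAS deletion in FA with ERF wild type and differed under the ERF knockout label, where Gata3 rose 5.26-fold and Tfap2c did not rise.

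**Figure D2:**
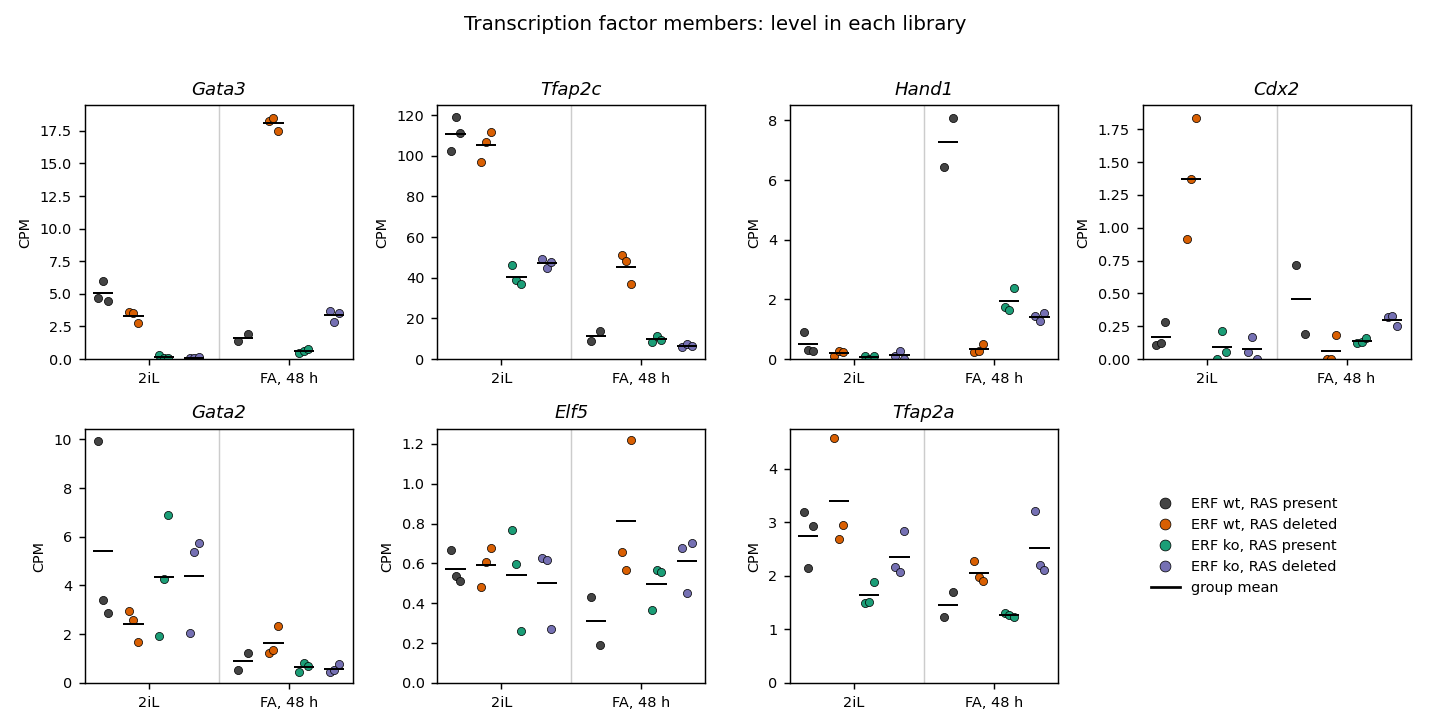
Level of the 7 transcription factors in each library (points, CPM, linear axis from 0), with the group mean as a bar, in 2iL on the left and FA on the right of each panel. Gata3 and Tfap2c in FA are highest in the RAS-deleted ERF wild type libraries (17.5 to 18.5 and 36.9 to 51.1 CPM), where Hand1 is lowest.

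Hand1, a basic helix-loop-helix factor of giant cells that also marks early mesoderm, was lowest in FA where Gata3 and Tfap2c were highest, in the RAS-deleted libraries. It had 6.44 and 8.10 CPM in the reference and 0.219, 0.284 and 0.503 CPM in the RAS-deleted libraries. Libraries labelled ERF knockout had 1.75, 1.65 and 2.39 CPM with RAS present and 1.45, 1.27 and 1.53 CPM with RAS deleted. The 4 groups did not overlap, and in 2iL no library passed 0.910 CPM, the value of replicate 1 of the reference.

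FA raised Hand1 13.6-fold in the reference (log2 3.76 ± 0.41, edgeR adjusted p = 7.22e-08), or by 4.63 on that scale without replicate 1 of the reference in 2iL and by 4.77 without replicate 1 of the 4 ERF wild type groups, but the RAS-deleted libraries did not pass (log2 0.74 ± 0.59, edgeR adjusted p = 0.342). The difference between these responses was -3.03 ± 0.79 (interaction in edgeR, adjusted p = 0.00624), and -3.89 and -4.11 without the same libraries. Under the ERF knockout label Hand1 rose 26.2-fold with RAS present and 9.88-fold with RAS deleted (edgeR adjusted p = 6.09e-07 and 2.18e-05), from 4 and 7 counts per group in 2iL. Without replicate 2 of the latter group in 2iL its log2 change was 4.39 in place of 3.30. RAS deletion in FA lowered it 20.9-fold with ERF wild type (log2 -4.39 ± 0.43, edgeR adjusted p = 2.15e-08) and by an amount that did not pass under the ERF knockout label (log2 -0.45 ± 0.36, edgeR adjusted p = 0.377). These effects differed by 3.94 ± 0.56 (interaction in edgeR, adjusted p = 1.31e-05).

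The ERF knockout label therefore went with less Hand1 where RAS was present and with more where it was deleted. In FA with RAS present Hand1 was 3.75-fold lower (log2 -1.90 ± 0.36, edgeR adjusted p = 0.00229), and with RAS deleted it was 4.09-fold higher (log2 2.03 ± 0.43, edgeR adjusted p = 0.00052). Both held in all alternatives run, those without replicate 1 of the libraries with raised chromosome 11 among them. Mesoderm markers, a list of 5 genes, summed to 0.244 to 1.2 TPM over the 23 libraries, and their part in these results was not tested.

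Cdx2, the homeobox factor that sets up trophectoderm, was barely detected. The RAS-deleted libraries in 2iL held 17, 27 and 38 counts (0.914, 1.37 and 1.84 CPM), against 3, 2 and 6 counts in the reference in 2iL. This group lay above every other library: the next highest was replicate 1 of the reference in FA, with 20 counts at 0.720 CPM. All other libraries held 0 to 10 counts.

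RAS deletion in 2iL thus raised Cdx2 8.09-fold with ERF wild type (log2 3.02 ± 0.64, edgeR adjusted p = 0.00846), or, from 82 counts against 11, by a ratio of 8.46 (exact binomial 95% interval 4.49 to 17.6). The call was lost without replicate 1 of the reference in 2iL (2.71, adjusted p = 0.0642), and DESeq2 gave Cdx2 no adjusted p there. Markers of 2-cell-like cells (Zscan4c, Zscan4d, Zfp352 and Tcstv3) were also higher in those libraries, with sums of 16 to 22.6 TPM against 2.22 to 4.22 TPM in the reference in 2iL, and 2 of the 4 were called (1.2% of all genes in either direction). Under the ERF knockout label in 2iL these sums were 8.37 to 27.3 TPM with RAS present and 12.4 to 32.7 TPM with RAS deleted. Cdx2 had 0 to 4 counts in those libraries. In FA the sum was 24.9 to 82.4 TPM in the RAS-deleted libraries. The part of these markers in the Cdx2 result was not tested. In the RAS-deleted libraries Cdx2 fell in FA, to 0, 0 and 5 counts (log2 -4.28 ± 0.73, edgeR adjusted p = 4.69e-05). The counts of 82 against 5 gave a ratio of 20.9 (exact binomial 95% interval 8.62 to 66.2, counting error only). Replicate 3 holds all 5 counts, and without it the fitted value was -7.93, against a group at 0. In FA it was lower on RAS deletion with ERF wild type (log2 -2.75 ± 0.86, edgeR adjusted p = 0.0126) and higher under the ERF knockout label with RAS deleted (log2 2.10 ± 0.84, edgeR adjusted p = 0.0483). Both calls rested on single libraries. The first was lost without replicate 1 of the reference in FA (-1.44, adjusted p = 0.388) or replicate 2 of the RAS-deleted libraries (-2.22, adjusted p = 0.0526), and without replicate 1 of the 4 ERF wild type groups it was -0.95 (adjusted p = 0.556). The second was lost with DESeq2 (adjusted p = 0.0624), without any 1 of 5 of the 6 libraries compared, with log2 changes of 1.58 to 2.22, and without replicate 1 of the ERF wild type or of the ERF knockout groups (1.62 and 2.03, adjusted p = 0.114 and 0.113). Without replicate 3 of the RAS-deleted libraries in FA the 2 values were -6.40 and 5.75, and without replicate 2 of the reference in FA the first was -3.33. The related gene Cdx1 was far more abundant in 2iL, with 28.4 ± 3.07 CPM in the reference and 45.1 ± 5.07 CPM in the RAS-deleted libraries (SD, n = 3), and had group means of at most 1.18 CPM in FA. Cdx1 did not pass the 2-fold minimum on RAS deletion in 2iL (log2 0.67 ± 0.17, edgeR adjusted p = 0.0235).

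Gata2, which acts beside Gata3 in trophoblast, fell in FA in 3 of the 4 genotypes. In the reference in 2iL it had 9.94 CPM in replicate 1 and 3.39 and 2.88 CPM in the other 2, and in FA it had 0.540 and 1.23 CPM. The fall was 6.36-fold (log2 -2.67 ± 0.65, edgeR adjusted p = 0.00209) and lost its call without replicate 1 of the 4 ERF wild type groups (-1.36, adjusted p = 0.169). It was -1.86 without replicate 1 in 2iL and -3.34 without replicate 2 in FA. In libraries labelled ERF knockout it fell 6.65-fold with RAS present and 7.44-fold with RAS deleted (edgeR adjusted p = 0.000754 and 0.000372). The RAS-deleted libraries did not pass (log2 -0.54 ± 0.54, edgeR adjusted p = 0.447). Their response differed from that of the reference by 2.125 (interaction in edgeR, not called). That interaction passed with DESeq2 (2.08, adjusted p = 0.0376). In edgeR it passed without the low-count filter (2.13, adjusted p = 5.04e-06) or without replicate 3 of the reference in 2iL (2.43, adjusted p = 0.0388). On RAS deletion in 2iL Gata2 did not pass either (log2 -1.19 ± 0.50, edgeR adjusted p = 0.176), but with the replicate number as a block, which pairs the libraries there, it fell by 1.07 (adjusted p = 0.0183). With that block 2 of the 9 genes other than Gata3 were called in place of 1. The ERF knockout label in FA with RAS deleted gave -1.49 ± 0.61 (edgeR adjusted p = 0.0578). That difference passed with DESeq2 (adjusted p = 0.0221), with only the compared groups (adjusted p = 0.00867) and without replicate 1 of the 4 ERF wild type groups (-1.65, adjusted p = 0.0343).

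Elf5 and Tfap2a varied least. Elf5, an ETS factor of trophoblast stem cells, had group means of 0.311 to 0.816 CPM and passed only on RAS deletion in FA with ERF wild type (log2 1.34 ± 0.47, edgeR adjusted p = 0.0241), a call lost with only the compared groups in the fit (adjusted p = 0.108), with DESeq2 (adjusted p = 0.0553), without replicate 2 of the reference (0.94, adjusted p = 0.21) and without replicate 3 of the RAS-deleted libraries (0.92, adjusted p = 0.147). The change was larger without replicate 1 of the reference in FA (2.10) or of the 4 ERF wild type groups (2.23). Neighbouring groups in the order of Elf5 levels all overlapped. Tfap2a, an AP-2 factor of trophoblast and surface ectoderm, had group means of 1.27 to 3.40 CPM and passed in no comparison with all libraries in the fit. Its largest change short of the threshold was on RAS deletion in FA under the ERF knockout label (log2 0.99 ± 0.24, edgeR adjusted p = 0.00383), where the 3 RAS-deleted libraries had 3.22, 2.2 and 2.11 CPM and the others 1.30, 1.26 and 1.24 CPM. Without 1 of 3 of these 6 libraries that change passed, at 1.01, 1.07 and 1.1. In the reference, its change from 2iL to FA passed without replicate 2 of either medium (-1.07 and -1.19). Antisense genes that overlap Tfap2a held at most 87 counts over all libraries, beside 1122 for Tfap2a, and the libraries were made strand-specific.

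In 2iL the 3 keratins were higher under the ERF knockout label, where Gata3 and Tfap2c were lower. Krt8 had 3.61, 1.73 and 1.11 CPM in the reference and 4.25, 2.59 and 1.84 CPM in the RAS-deleted libraries. The libraries labelled ERF knockout had 9.32, 15.3 and 20.4 CPM with RAS present and 10.9, 15.4 and 14.8 CPM with RAS deleted. The 2 sets of genotypes did not overlap. The fitted differences, untested, were 2.74, 1.82 and 3.95 on the log2 scale for Krt8, Krt18 and Krt19 with RAS present, and 2.25, 1.87 and 2.52 with RAS deleted. Over the alternatives run, the first 3 ranged from 2.423 to 3.439, 1.235 to 2.607 and 3.548 to 4.23. Those with RAS deleted ranged from 2.007 to 2.645, 1.638 to 2.195 and 2.143 to 3.002.

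For Krt18 in 2iL replicate 1 of the reference stood apart. It had 6.23 CPM in that library and 2.38 and 1.95 CPM in the others, and it overlapped with the 6.01, 11.3 and 21.7 CPM under the ERF knockout label. Krt19 was lower, with 0.105 to 0.139 CPM in the reference in 2iL and 1.2 to 2.89 CPM under the ERF knockout label, and these did not overlap.

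In FA the keratins of the reference rose toward the level of the libraries labelled ERF knockout. Krt8 had 9.93 and 8.62 CPM in the reference, 1.75, 2.23 and 5.72 CPM in the RAS-deleted libraries, 17.5, 20.5 and 25.4 CPM under the ERF knockout label with RAS present and 10.5, 14.3 and 15.2 CPM with RAS deleted. The RAS-deleted ERF wild type group was lowest, the reference next, and those labelled ERF knockout highest, with no overlap between these 3 steps. Krt18 ran from 10.4 to 16.3 CPM in the reference, from 3.24 to 5.25 CPM in the RAS-deleted libraries, and from 20.5 to 31.0 and from 10.6 to 16 CPM under the ERF knockout label with RAS present and deleted. Here the reference overlapped with ERF knockout and RAS deleted.

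**Figure D3:**
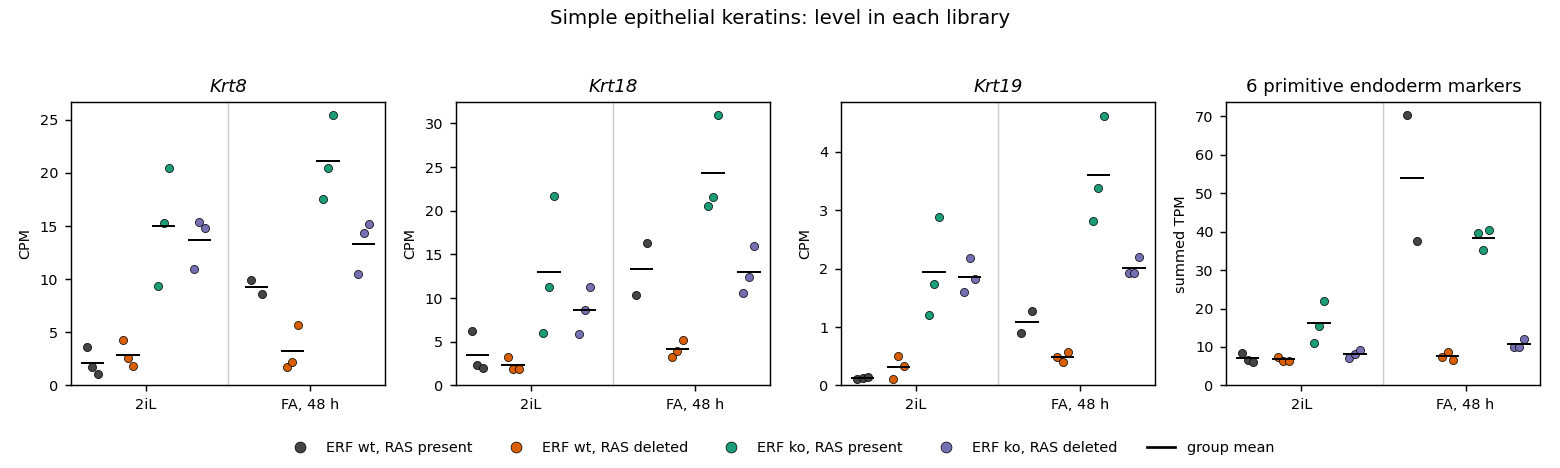
Level of the 3 keratins in each library (points, CPM, linear axis from 0) with the group mean as a bar, and in the last panel the summed TPM of 6 primitive endoderm markers. In FA the RAS-deleted ERF wild type libraries have the lowest group means of the keratins and the lowest marker sum (6.66 to 8.68 TPM), and the marker sum is above 35 TPM in both groups with RAS present.

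The rise of the keratins in FA passed in the reference. There Krt8 rose 4.14-fold (log2 2.05 ± 0.48, edgeR adjusted p = 0.00194), Krt18 3.62-fold (log2 1.86 ± 0.50, edgeR adjusted p = 0.00499) and Krt19 8.64-fold (log2 3.11 ± 0.50, edgeR adjusted p = 1.5e-05). The call of Krt18 was lost without replicate 2 of the reference in FA (1.49, adjusted p = 0.0578). Without replicate 1 of the reference in 2iL the rises of Krt8 and Krt18 were 2.73 and 2.62, and without replicate 1 of the 4 ERF wild type groups that of Krt18 was 2.90. None of the 3 was called in the other genotypes, where the log2 changes ran from -0.04 to 0.91. Under the ERF knockout label with RAS present Krt18 and Krt19 passed without replicate 3 of its 2iL libraries (1.5 and 1.30, adjusted p = 0.00892 and 0.00171), which brings the calls there to 5 of 9, and Krt19 without replicate 1 of its FA libraries (1.05). The interaction of medium and RAS deletion with ERF wild type was -2.51 ± 0.69 for Krt19 (edgeR adjusted p = 0.00944) and -1.85 ± 0.68 for Krt8 (edgeR adjusted p = 0.0583). The difference of Krt8 passed with DESeq2 (-1.92, adjusted p = 0.0262) and without replicate 1 of the reference in 2iL (-2.53, adjusted p = 0.0167) or replicate 3 of the RAS-deleted libraries in 2iL or in FA (-2.10 and -2.57, adjusted p = 0.0451 and 0.00615). The call for Krt19 was lost without replicate 2 of the RAS-deleted libraries in 2iL (-2.03, adjusted p = 0.0603).

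Deleting RAS in FA lowered all 3 keratins where ERF was wild type. The log2 changes were -1.50 ± 0.46 for Krt8, -1.67 ± 0.49 for Krt18 and -1.13 ± 0.39 for Krt19 (edgeR adjusted p = 0.0147, 0.0111 and 0.0231). Each call was lost when single libraries were left out, for Krt8 without replicate 1 of the reference in FA (-1.37, adjusted p = 0.0833) or of the 4 ERF wild type groups (adjusted p = 0.132) and for Krt18 and Krt19 without its replicate 2 (-1.30 and -0.85, adjusted p = 0.117 and 0.196). Leaving out replicate 1 or 2 of the RAS-deleted libraries in FA also ended the call of Krt8 (-1.21 and -1.29, adjusted p = 0.0571 and 0.0564), while without replicate 3, the highest of that group, its change was -2.22 (adjusted p = 0.00104). The call of Krt19 was lost without the group's replicate 2 (-1.01, adjusted p = 0.0749) and with only the compared groups in the fit (adjusted p = 0.0701). No keratin was called on RAS deletion in FA under the ERF knockout label, and the interactions were not called. That of Krt8 (0.83) passed without replicate 3 of the RAS-deleted libraries in FA (1.55, adjusted p = 0.0443).

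Where RAS was deleted, the ERF knockout label raised all 3 keratins in FA. Krt8 was 4.04-fold higher (log2 2.02 ± 0.42, edgeR adjusted p = 0.000844), Krt18 3.09-fold (log2 1.63 ± 0.45, edgeR adjusted p = 0.00728) and Krt19 4.08-fold (log2 2.03 ± 0.34, edgeR adjusted p = 3.39e-05). All 3 calls held in every alternative run, and that of Krt8 was 2.73 without replicate 3 of the RAS-deleted ERF wild type libraries. With RAS present Krt19 passed (log2 1.74 ± 0.35, edgeR adjusted p = 0.00318), though not without replicate 1 of the reference in FA (1.52, adjusted p = 0.0847). Krt8 and Krt18 did not (log2 1.19 ± 0.44 and 0.87 ± 0.47, edgeR adjusted p = 0.0993 and 0.265). In a fit of those groups alone Krt8 passed (1.18, adjusted p = 0.0146).

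Primitive endoderm also expresses Krt8, Krt18 and Krt19, and the summed level of 6 of its markers (Gata6, Gata4, Sox17, Sox7, Pdgfra and Dab2) moved with medium and RAS. In FA it was 37.6 to 70.4 TPM in the reference and 6.66 to 8.68 TPM in the RAS-deleted libraries, and under the ERF knockout label 35.3 to 40.4 TPM with RAS present and 10.1 to 12.2 TPM with RAS deleted. On RAS deletion in FA with ERF wild type all 6 markers fell (8.33% of all genes did), Gata6 by 4.02 on the log2 scale (edgeR adjusted p = 5.85e-09). By ERF label with RAS deleted in FA, 1 of the 6 was called higher, where 8.13% of all genes were: Gata6 (log2 1.00 ± 0.35, edgeR adjusted p = 0.0241). In 2iL the sums were 6.15 to 8.39 TPM in the reference, 6.29 to 7.52 TPM in the RAS-deleted libraries, and 11.2 to 21.9 and 7.19 to 9.29 TPM under the ERF knockout label with RAS present and deleted. With RAS present, replicates 1, 2 and 3 under that label had sums of 11.2, 15.5 and 21.9 TPM beside 9.32, 15.3 and 20.4 CPM of Krt8. With RAS deleted they had 7.19, 8.05 and 9.29 TPM beside 10.9, 15.4 and 14.8 CPM. In FA the values under the label were 39.6, 35.3 and 40.4 TPM beside 17.5, 20.5 and 25.4 CPM with RAS present. With RAS deleted in FA they were 10.1, 10.1 and 12.2 TPM beside 10.5, 14.3 and 15.2 CPM. The part of primitive endoderm in the keratin differences by medium, RAS or ERF label was not tested.

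Of other keratins of the simple type, Krt7 had group means of 0.715 to 2.79 CPM. Like Krt8, Krt18 and Krt19 it fell on RAS deletion in FA with ERF wild type (log2 -1.29 ± 0.33, edgeR adjusted p = 0.00323), and it fell under the ERF knockout label too (log2 -1.54 ± 0.29, edgeR adjusted p = 0.000426). It passed for the ERF label neither in FA with RAS present (log2 0.65 ± 0.31, edgeR adjusted p = 0.192) nor with RAS deleted (log2 0.40 ± 0.32, edgeR adjusted p = 0.344). Krt20 rose in FA in all 4 genotypes, from group means of at most 0.0587 CPM in 2iL to 1.09 to 2.19 CPM.

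Pairs of genes are given across libraries as a description. Over 23 libraries on the log2(CPM + 1) scale, Pearson's r was 0.921 for Krt8 and Krt18, 0.930 for Krt8 and Krt19 and 0.895 for Krt18 and Krt19. Gata3 and Tfap2c gave 0.973 over the 12 libraries in 2iL and 0.818 over the 11 in FA, but 0.221 over all 23. Tfap2c fell in FA in every genotype, while Gata3 was lower there in the reference alone. Gata3 and Krt8 gave -0.937 in 2iL and -0.890 in FA. The libraries share their groups, so these values reflect differences between a few genotypes.

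**Figure D4:**
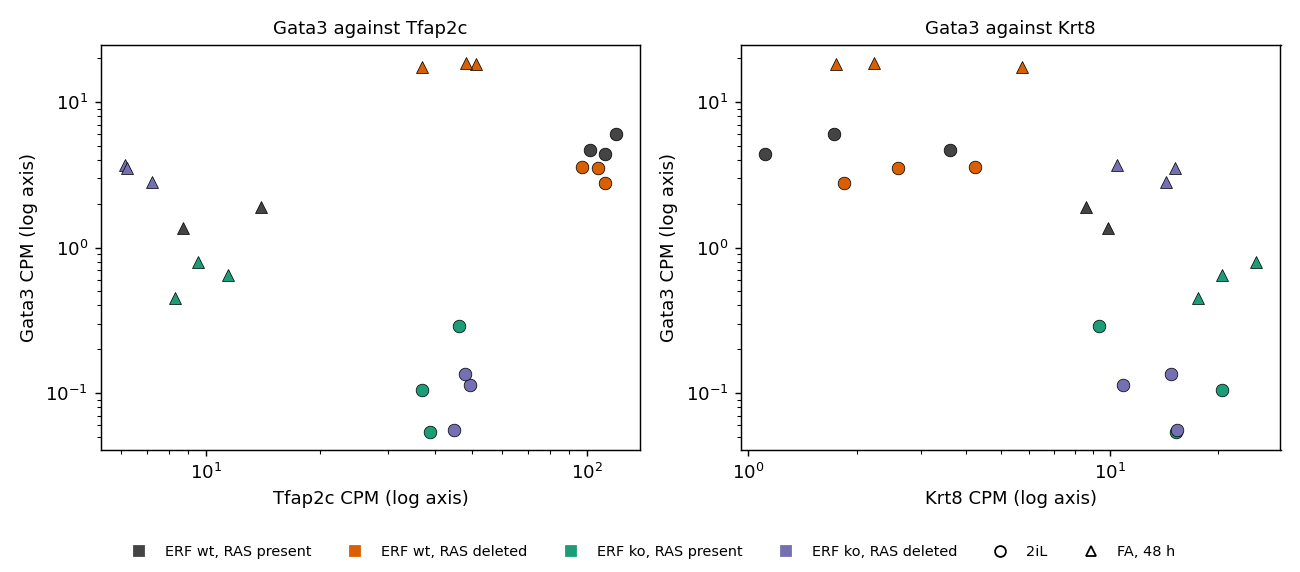
Gata3 against Tfap2c and against Krt8 (CPM, both axes logarithmic), 1 point per library, with colour for the genotype, circles for 2iL and triangles for FA. Within each medium, libraries labelled ERF knockout (green and violet) sit low for Gata3 and to the right for Krt8 of the ERF wild type libraries of the same RAS status.

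By likeness of pattern, measured as Pearson's r over 23 libraries, the genes closest to Gata3 were Aard (0.976) and Tbrg1 (0.963). Those closest to Tfap2c were Oas1g (0.986) and Sod2 (0.984). Hand1 was most like Rbbp8nl (0.970), Krt8 most like Optn (0.945) and Krt19 most like Syt17 (0.947). Members of the same protein families gave further contrasts. Elf3, an ETS factor of epithelia, was also high in 2iL and in the RAS-deleted libraries in FA: 108 ± 6.68 CPM in the reference in 2iL (SD, n = 3), 12.7 ± 0.184 CPM in FA (SD, n = 2) and 82.9 ± 22 CPM in the RAS-deleted libraries in FA (SD, n = 3). It was 9.14-fold lower under the ERF knockout label in FA with RAS deleted (log2 -3.19 ± 0.14, edgeR adjusted p = 1.8e-13). Gata4 and Gata6, which mark primitive endoderm, went against Gata3 on RAS deletion in FA with ERF wild type (log2 -2.26 ± 0.39 and -4.02 ± 0.33, edgeR adjusted p = 0.000138 and 5.85e-09).

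Of a list of 20 other trophoblast and placental genes, 19 were tested. In the reference FA called 6 higher and 7 lower (13.2% and 10.8% of all genes), with a median log2 change of -0.46 beside 0.03 over all genes. Peg10, an imprinted gene needed for the placenta, rose from 30.9 to 1623 CPM (log2 5.71 ± 0.20, edgeR adjusted p = 3.33e-14), and Sox21 fell from 47.3 to 5.00 CPM (log2 -3.26 ± 0.31, edgeR adjusted p = 6.47e-08). Gcm1, the factor of syncytiotrophoblast, rose to 1.32 CPM (log2 2.72 ± 0.50, edgeR adjusted p = 7.67e-05).

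RAS deletion in FA with ERF wild type called 7 of the 19 higher and 2 lower (8.93% and 8.33% of all genes), with a median of 0.86. Sox21 rose from 5.00 to 54.5 CPM (log2 3.47 ± 0.31, edgeR adjusted p = 5.16e-08), as Gata3 and Tfap2c did, while Peg10 (log2 -3.82 ± 0.18, edgeR adjusted p = 5.68e-12) and Phlda2, an imprinted restraint on placental growth (log2 -3.79 ± 0.25, edgeR adjusted p = 4.29e-11), fell, as Hand1 did. The same deletion under the ERF knockout label called 1 higher and 4 lower (2.81% and 4.06% of all genes).

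The ERF knockout label in FA with RAS deleted called 2 higher and 11 lower (8.13% and 8.48% of all genes), with a median of -1.19 beside 0.0131 over all genes. Sox21 fell to 4.13 CPM (log2 -3.73 ± 0.26, edgeR adjusted p = 2.39e-09) and the homeobox gene Msx2 from 3.05 to 0.488 CPM (log2 -2.63 ± 0.30, edgeR adjusted p = 1.97e-07). Phlda2 rose to 14.3 CPM (log2 3.75 ± 0.24, edgeR adjusted p = 1.77e-11). With RAS present 2 were called, both lower (over all genes 1.58% higher and 0.78% lower): Fgfr2, the FGF receptor of trophoblast stem cells (log2 -1.31 ± 0.28, edgeR adjusted p = 0.00765), and Eomes (log2 -1.06 ± 0.19, edgeR adjusted p = 0.0015). The interaction of RAS deletion and the ERF label in FA called 15 of the 19, 3 positive and 12 negative, where 13.7% of all genes (6.29% positive and 7.42% negative) and 4 of the 10 genes described here were called. The 4 are Gata3 and Tfap2c, both negative, and Hand1 and Cdx2, both positive. The call of Cdx2 (log2 3.84 ± 1.14, edgeR adjusted p = 0.0137) was lost without replicate 1 of the reference in FA (2.53, adjusted p = 0.231) and without replicate 1 of the 4 groups labelled ERF knockout (3.68, adjusted p = 0.0547) or of the 4 ERF wild type groups (2.04, adjusted p = 0.309). Without that library of the reference 2 of the 10 were called.

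The other interactions compared responses to FA between genotypes. With ERF wild type, RAS deletion changed the response of 4 of the 9 genes other than Gata3, where 11.9% of all genes were called: Tfap2c had a positive difference, and Cdx2, Hand1 and Krt19 negative ones. With the ERF knockout label it changed that of 0 of the 9 genes other than Gata3 (4.59% of all genes), also in DESeq2. There 1 gene, Tfap2c, had an unadjusted p under 0.05, short of 2-fold (log2 -0.80 ± 0.21, edgeR adjusted p = 0.0174). The difference by ERF label in the response of RAS-deleted cells includes the contrast by which the genes were chosen, and no test of it is reported.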

How the data were processed

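The 23 libraries were strand-specific, made from total RNA after removal of ribosomal RNA, and read as 75 bp pairs, per the labels' protocols. Reads were handled with bcl2fastq 2.20.0, fastp 0.20.0 and Salmon (version not stated) on mm10, per the submitters' processing notes. The authors deposited estimated counts, TPM and transcript lengths per gene symbol, per the file headers. Salmon shares reads among similar transcripts, so close copies are less certain. The estimated counts were rounded, and the deposited count matrix equals them (0 cells differ).

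Tests used edgeR 4.0.16 under R 4.3.3 (filterByExpr, TMM scaling, robust quasi-likelihood test) in 1 model of all 8 groups, with 12 comparisons of 1 factor and 4 interactions, and p-values adjusted by Benjamini-Hochberg over 20372 genes. Standard errors are the absolute log2 change divided by the square root of F. CPM uses TMM-scaled library sizes. No test of the 10 genes by ERF label in 2iL is reported, alone or in the interaction of medium and ERF. Nor is any test of Gata3 in a comparison that includes 2iL libraries, since those values chose the genes. The 10 genes, the gene lists and the naming rule were chosen with earlier results of these data known. Named beside the 10 genes are up to 4 called genes per list and comparison with the largest change, family members, and the genes of most similar pattern (predicted genes and pseudogenes passed over). Groups follow the titles and replicate numbers in the labels. No batch is labelled. No 2 replicates agreed within sampling noise (chi-square per degree of freedom 3.04 to 44.9). Same-numbered libraries were compared by the correlation of their deviations from the group means: the number paired the libraries, with r of 0.103 to 0.380, for FA against 2iL in all genotypes but the reference and for RAS deletion in 2iL. The scripts were tested on simulated data. Alternatives were DESeq2 1.42.0, other size factors, no filter, other samples in the fit, a replicate block, the largest gene row left out, no fold minimum and leaving out libraries. One target gene is left out of the text.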

Additional observations from a re-analysis of the deposited data

Results flagged for a closer look

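The medium, RAS and ERF effects listed here differed between groups by an interaction test in edgeR and are given as log2 differences with their standard errors. In FA, deleting RAS acted differently under the 2 ERF labels on Tfap2c (-2.59 ± 0.24, edgeR adjusted p = 6.73e-08), Hand1 (3.94 ± 0.56, edgeR adjusted p = 1.31e-05), Cdx2 (3.84 ± 1.14, edgeR adjusted p = 0.0137) and Gata3 (-1.09 ± 0.35, edgeR adjusted p = 0.0226). The last 2 were lost without replicate 1 of the reference in FA.

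With ERF wild type, the response to FA differed between RAS-deleted and reference libraries for Tfap2c (2.09 ± 0.21, edgeR adjusted p = 3.22e-07). It differed in the other direction for Cdx2 (-5.76 ± 1.07, edgeR adjusted p = 0.000303), Hand1 (-3.03 ± 0.79, edgeR adjusted p = 0.00624) and Krt19 (-2.51 ± 0.69, edgeR adjusted p = 0.00944). The value of Cdx2 fell to -3.88 (adjusted p = 0.0568) without replicate 1 of the 4 ERF wild type groups. Without replicate 3 of the RAS-deleted libraries in FA, which holds all of that group's Cdx2 counts, the 2 differences of Cdx2 here were 7.49 and -9.41, against a group at 0. Without replicate 1 or 2 of the reference in FA the second was -4.45 or -6.35.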

How the results depend on the processing

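Of the single-gene values recomputed under the alternatives listed in the methods, 1603 kept their side of the threshold, 31 lost it, 37 gained it and none changed direction while called. Under the 2 alternatives chosen after seeing the data (without replicate 1 of the 4 ERF wild type or of the 4 ERF knockout groups), 142 kept it, 9 lost it and 1 gained it. For RAS deletion in 2iL with ERF wild type the 1 called gene became 2 without the low-count filter, 0 with DESeq2 (which gave Cdx2 no adjusted p), and 0 to 1 when single libraries were left out. For RAS deletion in FA with ERF wild type the 8 became 5 with only the compared groups, with or without the replicate block (Cdx2 was filtered out there), and 5 to 7 without single libraries. For that deletion under the ERF knockout label the 1 became 4 with no fold minimum and 1 to 2 without single libraries. The interaction of RAS and ERF in FA called 2 without replicate 1 of the ERF wild type groups, and 2 to 5 without single libraries. For the interaction of medium and RAS the 4 of 9 with ERF wild type became 7 without the filter and 3 to 5 without single libraries. With the ERF knockout label the 0 of 9 became 1 with no fold minimum. For that of medium and ERF no calls of these genes are given, since it includes the contrast that chose the genes. FA under the ERF knockout label with RAS present called 3 to 5 of 9. The cause was not tested. The replicate block gave 2 in place of 1 for RAS deletion in 2iL with ERF wild type and changed no other call where the number pairs the libraries. Elsewhere not every same-numbered pair passed the limit of r = 0.1 used for pairing. Replicate 1 still shared raised chromosome 8 across the ERF wild type groups and raised chromosome 11 across those labelled ERF knockout. The block was fitted on the compared groups alone, so its effect is read against that fit. With it Krt8 passed for the interaction of RAS and ERF in FA (1.51, adjusted p = 0.000931, against 0.80, not passing, without it).

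Cdx2, Elf5, Hand1 and Krt19 had under 10 counts in 18, 6, 13 and 5 of 23 libraries, so small changes were not detectable at this depth, and the group of 2 reference libraries in FA enters 3 of the 12 comparisons of 1 factor.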

Other observations

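Replicate 1 of the reference in 2iL stood apart for several of these genes. It had the highest level of its group for Gata2 (9.94 against 2.88 and 3.39 CPM), Hand1 (0.910 against 0.279 and 0.298 CPM), Krt8 (3.61 against 1.11 and 1.73 CPM) and Krt18 (6.23 against 1.95 and 2.38 CPM), but not for Gata3, Tfap2c, Cdx2 or Krt19.

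The proportion of the keratins was not constant. The ratio of Krt18 to Krt8 on the TPM scale had a median of 1.48 over the 23 libraries and ran from 0.766 to 2.67, and the ratio of Krt19 to Krt18 ran from 0.0321 to 0.425. Gata1, a blood factor of the Gata3 family at low level, had group means of 0.973 CPM in the RAS-deleted libraries in FA and 0.0245 CPM under the ERF knockout label with RAS deleted in FA.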
